A study of Mus musculus with 8 samples.

Results

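Autophagy encloses part of the cytoplasm in a double membrane, the autophagosome, and delivers it to the lysosome for breakdown. The 35 genes described here encode that machinery and its mitochondrial branch, mitophagy. They were chosen by name from the genes of the array, and each one is a gene that textbook accounts place in the ULK1 and PI3-kinase complexes that start the process, in membrane supply, in the conjugation of ubiquitin-like proteins to the growing membrane, in the ATG8 family, among cargo and mitophagy receptors, or at the lysosome with its transcription factor. All 35 of the 22292 genes tested were measured, and the brightest probe of each was well above background on all 8 arrays and saturated on 0.

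The arrays measured RNA from the soleus, a slow muscle of the hind limb, in male C57BL/6J mice aged 14 weeks. One group, 4 arrays filed as Pg, came from mice given Porphyromonas gingivalis, a bacterium of human gum disease, by feeding needle for 6 weeks. The other, 4 arrays filed as Co, came from mice given saline. All mice in both groups ate a high-fat diet and entered at 8 weeks of age, so no group on ordinary chow is part of the comparison. The question was what oral administration of the bacterium does to muscle gene expression in mice fed in this way.

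In muscle, autophagy removes worn proteins and mitochondria and is set by nutrient and energy supply. The kinase mTORC1 holds the ULK1 complex inactive when nutrients are plentiful, and AMPK activates it when energy is short. Much of this control acts on proteins through phosphorylation, lipidation and movement to the nucleus, none of which an array of RNA measures. Transcripts of several receptors and ATG8 proteins are also targets of FOXO3 and TFEB, factors known to act on autophagy genes in muscle.

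The arrays lay on 1 slide and were read in 1 scan. A number in the array barcode of the file headers was 1 for all P. gingivalis arrays and 2 for all saline arrays. What it stands for is not stated there. Group and whatever that number records therefore cannot be told apart. Whether every array stands for a different mouse is not stated in the labels, and p-values then measure the spread between these samples alone. Groups follow the sample records. Each of the 8 columns of the authors' deposited table matches the array filed under the opposite group with the same number, once the scanner signals are corrected and quantile-normalized in the same way. The median absolute log2 difference is at most 4.44e-15 for that match, against 0.185 to 0.217 for the array of the same name, and every direction below would be turned if the names in that table were the right ones. The 75th percentile of the signal lay between 648 and 764, lowest on P. gingivalis array 2, the single array that the extraction software marked for evaluation. Probes well above background numbered 34859 to 35401 on P. gingivalis arrays, against 30215 to 34114 on saline arrays.

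TFEB, the transcription factor of lysosomal and autophagy genes, binds a palindrome built on the E-box CACGTG. The stretches that hold this hexamer in the promoters of these genes are printed because Tfeb is itself one of the 35 genes and several of the others are known as its targets. Sequences are RefSeq's for build GRCm38.p6, with windows running from 250 bases before to 50 after the start of transcription, and 27 of the 35 genes matched 31 windows. The hexamer, which reads the same on both strands, was in 7 of the 31 windows (22.6%), against 7.15% of all 32851 windows. These were the windows of Atg14, Atg3, Atg5, Atg7, Bnip3, Ctsl and Lamp1. The longer TCACGTGA, which contains the hexamer, was in the Atg3 window alone (3.23% of the windows, against 0.974% of all). In the sequences below, CACGTG is in capitals and the strand is that of the gene.

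For the lysosomal membrane protein Lamp1, with 4 copies, the 250 bases before the start site (chr8:13158911-13159160, plus strand), and for the conjugating enzyme Atg3, with 2 copies, the same stretch (chr16:45158579-45158828, plus strand) read as follows.
Lamp1: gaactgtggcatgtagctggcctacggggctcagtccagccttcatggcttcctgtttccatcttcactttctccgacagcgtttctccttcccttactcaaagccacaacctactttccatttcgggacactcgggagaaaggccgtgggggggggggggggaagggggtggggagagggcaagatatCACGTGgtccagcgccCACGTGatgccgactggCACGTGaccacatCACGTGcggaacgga
Atg3: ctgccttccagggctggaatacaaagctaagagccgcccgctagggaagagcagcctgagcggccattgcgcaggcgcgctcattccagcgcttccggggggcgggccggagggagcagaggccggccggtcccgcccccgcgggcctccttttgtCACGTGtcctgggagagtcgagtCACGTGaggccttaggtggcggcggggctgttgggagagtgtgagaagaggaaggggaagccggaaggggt
For the other 5 genes, which have 1 copy each, 30 bases centred on the hexamer are given. They lie at chr14:47568418-47568447 on the minus strand (Atg14), chr10:44268313-44268342 on the plus strand (Atg5), chr6:114670952-114670981 on the plus strand (Atg7), chr7:138909597-138909626 on the minus strand (Bnip3) and chr13:64370739-64370768 on the minus strand (Ctsl).
Atg14: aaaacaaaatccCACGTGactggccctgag
Atg5: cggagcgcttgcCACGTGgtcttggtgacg
Atg7: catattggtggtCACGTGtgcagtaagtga
Bnip3: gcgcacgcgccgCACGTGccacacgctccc
Ctsl: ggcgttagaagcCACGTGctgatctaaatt
Counted from the start site, with bases before it negative, the hexamers of Lamp1 begin at -61, -45, -28 and -15, and those of Atg3 at -94 and -71. A match describes these letters and shows no binding. The 7 genes with the hexamer had log2 differences between the groups of -0.09 (Atg7) to 0.06 (Atg14), with a median of 0.0058 and adjusted p-values of 0.498 to 0.992 in limma. A FOXO motif, GTAAACA, searched on both strands, was in 0 of the 31 windows and in 3.65% of all windows. The core of the antioxidant response element, TGACNNNGC, also searched on both strands, was in 3 windows (9.68%), those of Atg13, Map1lc3b and Ulk2, and in 12.4% of all.

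Between P. gingivalis and saline arrays, 0 of the 35 genes passed an adjusted p of 0.05 (limma, Benjamini-Hochberg over all genes), where 0.117% of all genes did. The lowest adjusted p was 0.0680, for Nbr1. That count was not the same under every processing tried and reached 6 with median centring, where 10.7% of all genes passed. Nbr1 and Wipi2 each passed under 5 of the alternatives. Without adjustment, 9 genes had a p under 0.05 (25.7%), against 19.7% of all genes. On the P. gingivalis arrays 5 of them were higher (14.3%), against 10% of all genes, and 4 were lower (11.4%), against 9.69% of all genes. The 4 arrays of the groups did not overlap for 8 genes (22.9%), against 13.4% of all genes. Of these, 5 were higher on P. gingivalis arrays, Nbr1, Becn1, Wipi2, Atg10 and Tfeb, where 7.33% of all genes were higher without overlap. The other 3, Atg4b, Ulk1 and Sqstm1, were lower, where 6.09% of all genes were lower without overlap. Without P. gingivalis array 2, the array marked for evaluation, 0 genes passed, 8 were at an unadjusted p under 0.05, against 15.9% of all genes in that fit, and 10 had groups that did not overlap, against 16.8% of all genes. The differences divided almost evenly, 17 higher (48.6%, against 47.7% of all genes) and 18 lower (51.4%, against 52.3% of all genes), and their median was -0.0015, against -0.01 over all genes.

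The differences were small in size. All 35 had a 95% interval inside 1.5-fold in either direction, as 74.2% of all genes did, and the largest fold was 1.28. Their spread between arrays of a group was also lower, with a median SD of 0.0799 on the log2 scale, against 0.144 over all genes. Values throughout are log2 signal relative to the 75th percentile of the array, differences are P. gingivalis minus saline, and a value is set against other values of the same probe only. Centring each array on its median in place of the 75th percentile moved the median of all genes to 0.14, so negative differences no larger than about that size turn positive under it. The median of the 35 genes minus that of all genes was 0.0095 under each of the 2 scalings. Both subtract 1 value per array from every gene, so this equality was fixed in advance and is no check. In whole muscle, fewer cells of a type and less RNA per cell cannot be told apart.

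**Figure D1:**
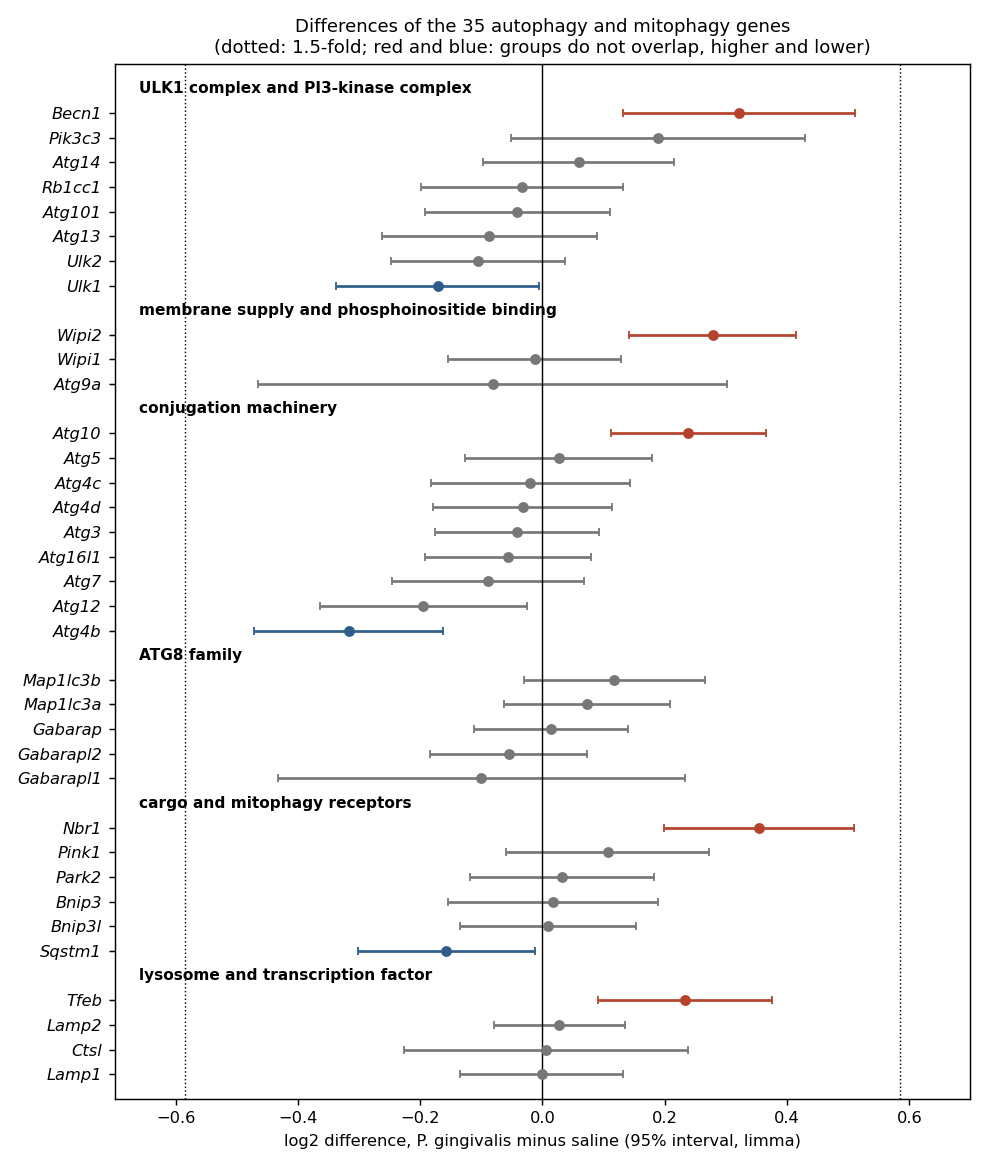
Log2 difference (P. gingivalis minus saline, horizontal axis) of each of the 35 genes by its brightest probe, grouped by role. Points are the estimate and bars the 95% interval from limma. All intervals lie inside the dotted lines at 1.5-fold, and the 8 coloured genes are those whose groups of 4 arrays do not overlap.

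Among the genes that start autophagy, 2 of 8 had groups that did not overlap (25%, against 13.4% of all genes), and they lay on opposite sides. Ulk1, the kinase that opens the pathway, had values of 3.68, 3.67, 3.84 and 3.91 on P. gingivalis arrays, against 4.04, 3.92, 3.91 and 3.91 on saline arrays. The groups came within the last digit of each other, since the highest P. gingivalis array and the lowest saline array both round to 3.91. Its log2 difference was -0.17 ± 0.07 (SE, n = 4 per group, limma adjusted p = 0.241). The related kinase Ulk2 had 0.78, 0.80, 0.88 and 0.86 on P. gingivalis arrays, against 0.95, 1.01, 0.98 and 0.81 on saline arrays. Saline array 4 lay inside the range of the P. gingivalis arrays, and the difference was -0.11 (adjusted p = 0.384). By their brightest probes, the partners of these kinases were close to 0. Atg13, which mTORC1 phosphorylates, was at -0.09, the stabilising subunit Atg101 at -0.04 and the scaffold Rb1cc1, also called FIP200, at -0.03. A dimmer probe of Atg13 was at -0.34, with groups that overlapped. The 7 kept probes of Rb1cc1 ran from -0.03 to 0.17, and the groups did not overlap for the highest.

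Becn1 encodes beclin 1, the regulatory core of the PI3-kinase complex that marks the membrane with a phosphoinositide. Its values were 0.97, 1.14, 1.08 and 1.21 on P. gingivalis arrays, against 0.74, 0.63, 0.90 and 0.85 on saline arrays. Every P. gingivalis array was above every saline array, by as little as the gap between 0.97 and 0.90. The log2 difference was 0.32 ± 0.08 (SE, n = 4 per group, limma adjusted p = 0.110), a fold of 1.25. The catalytic subunit Pik3c3, or VPS34, had -0.70, -0.50, -0.42 and -0.28 on P. gingivalis arrays, against -0.81, -0.69, -0.66 and -0.49 on saline arrays. These overlapped widely, and the difference was 0.19 ± 0.10 (SE, n = 4 per group, limma adjusted p = 0.357). Atg14, which directs the complex to autophagy, was at 0.06. The probe of Becn1 lies at chr11:101151771-101152713 and that of Ulk1 at chr5:111213514-111213573, in build mm9 as given in the file headers. No mm9 annotation was used here, so exon and UTR positions of probes are not given.

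Membrane supply was represented by 3 genes. Wipi2 binds the phosphoinositide made by the PI3-kinase complex and recruits the conjugation machinery. It had 0.45, 0.39, 0.40 and 0.35 on P. gingivalis arrays, against 0.17, 0.00, 0.19 and 0.12 on saline arrays. The lowest P. gingivalis array stood clear of the highest saline array, with a log2 difference of 0.28 ± 0.06 (SE, n = 4 per group, limma adjusted p = 0.0804). The probe lies at chr5:143145353-143145412 (mm9). Its relative Wipi1 was at -0.01, with a 95% interval of -0.15 to 0.13. Atg9a, the membrane protein of vesicles that seed the autophagosome, had -0.48, -0.37, -0.45 and -0.36 on P. gingivalis arrays, against -0.46, -0.58, 0.20 and -0.50 on saline arrays. Saline array 3 was far above the other 7 arrays, and without it the difference of Atg9a was 0.10, against -0.08 with it.

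In the conjugation machinery, 2 of 9 genes had groups that did not overlap (22.2%, against 13.4% of all genes), again on opposite sides of 0. Atg10 is the conjugating enzyme that joins Atg12 to Atg5. Its values were 1.04, 1.09, 1.02 and 1.16 on P. gingivalis arrays, against 0.89, 0.77, 0.87 and 0.83 on saline arrays, without overlap. The log2 difference was 0.24 ± 0.06 (SE, n = 4 per group, limma adjusted p = 0.0920), with the probe at chr13:91076938-91162176 (mm9). Atg4b is the protease that trims ATG8 proteins before lipidation and frees them afterwards. It had 0.40, 0.24, 0.19 and 0.19 on P. gingivalis arrays, against 0.65, 0.56, 0.57 and 0.50 on saline arrays. All 4 saline arrays were above the P. gingivalis arrays, and the log2 difference of -0.32 ± 0.07 (SE, n = 4 per group, limma adjusted p = 0.0804) was the lowest of the 35 genes. Its probe lies at chr1:95685909-95685968 (mm9).

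Atg12, the ubiquitin-like protein that Atg10 transfers, had 2.17, 2.44, 2.22 and 2.22 on P. gingivalis arrays, against 2.43, 2.41, 2.55 and 2.44 on saline arrays. P. gingivalis array 2 lay among the saline arrays and the other 3 below them, with a log2 difference of -0.20 ± 0.07 (SE, n = 4 per group, limma adjusted p = 0.204). By their brightest probes, the remaining 6 genes of this step lay between -0.09 and 0.03. They were the activating enzyme Atg7 (-0.09), the scaffold Atg16l1 (-0.06), the conjugating enzyme Atg3 (-0.04), the proteases Atg4d (-0.03) and Atg4c (-0.02), and Atg5 (0.03), the acceptor of Atg12. Their adjusted p-values in limma ran from 0.498 to 0.897. With dimmer kept probes included, Atg4c ran from -0.02 to 0.55, Atg16l1 from -0.16 to -0.06 and Atg7 from -0.09 to 0.15.

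The ATG8 family, whose lipid-anchored proteins line the autophagosome and bind cargo receptors, had 5 genes. By their brightest probes 0 of 5 had separate groups, against 13.4% of all genes, while the second probe of Map1lc3b was higher without overlap. Map1lc3b, encoding the LC3B protein used as the standard marker of autophagosomes, had 5.62, 5.55, 5.59 and 5.44 on P. gingivalis arrays, against 5.54, 5.40, 5.38 and 5.41 on saline arrays. P. gingivalis arrays 1, 2 and 3 were above all saline arrays, and array 4 was below saline array 1. The log2 difference was 0.12 ± 0.06 (SE, n = 4 per group, limma adjusted p = 0.353). Map1lc3a was at 0.07 and Gabarap at 0.01, while Gabarapl2 was at -0.06. Gabarapl1 had 7.18, 7.20, 7.25 and 6.72 on P. gingivalis arrays, against 7.38, 7.07, 7.32 and 6.98 on saline arrays. Its single lowest value, on P. gingivalis array 4, set the sign, since the difference was -0.10 with that array and 0.02 without it.

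Of the 6 cargo and mitophagy receptors, 2 had groups that did not overlap (33.3%, against 13.4% of all genes). Nbr1 and Sqstm1, or p62, both bind ubiquitinated cargo and ATG8 proteins. Nbr1 had 0.05, 0.01, 0.01 and -0.15 on P. gingivalis arrays, against -0.38, -0.29, -0.37 and -0.48 on saline arrays. The groups were well apart, with a log2 difference of 0.35 ± 0.07 (SE, n = 4 per group, limma adjusted p = 0.0680) at chr11:101441948-101442007 (mm9). Sqstm1 had 6.46, 6.65, 6.65 and 6.67 on P. gingivalis arrays, against 6.79, 6.79, 6.76 and 6.72 on saline arrays. The highest P. gingivalis array was just under the lowest saline array, with a log2 difference of -0.16 ± 0.06 (SE, n = 4 per group, limma adjusted p = 0.223) at chr11:50013670-50013729 (mm9). P. gingivalis array 1 stood below its own group, and without it Sqstm1 was at -0.11.

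By their brightest probes, the 4 mitophagy genes had log2 differences of 0.01 to 0.11, with groups that overlapped, while the second probes of Pink1 and Bnip3l were higher without overlap. Pink1, the kinase that accumulates on damaged mitochondria, had 6.59, 6.72, 6.62 and 6.66 on P. gingivalis arrays, against 6.68, 6.40, 6.58 and 6.50 on saline arrays. The groups overlapped through saline array 1, and the difference was 0.11 ± 0.07 (SE, n = 4 per group, limma adjusted p = 0.446). Park2, the older symbol on the array for the ubiquitin ligase parkin that Pink1 activates, was at 0.03 with a 95% interval of -0.12 to 0.18. Bnip3, a receptor in the outer mitochondrial membrane known as a FOXO3 target in muscle, was at 0.02 with an interval of -0.15 to 0.19. Its relative Bnip3l, or NIX, was at 0.01 with an interval of -0.13 to 0.15.

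At the lysosome, 3 genes were within 0.03 of 0 by their brightest probes. Lamp1 and Lamp2, the main proteins of the lysosomal membrane, were at -0.0015 and 0.03, and the protease Ctsl, encoding cathepsin L, was at 0.0058. Tfeb was the exception in this group. It had 1.14, 1.12, 1.08 and 1.24 on P. gingivalis arrays, against 0.84, 0.86, 0.99 and 0.97 on saline arrays. The groups did not overlap, and the log2 difference was 0.23 ± 0.06 (SE, n = 4 per group, limma adjusted p = 0.114) at chr17:47929089-47929148 (mm9).

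**Figure D2:**
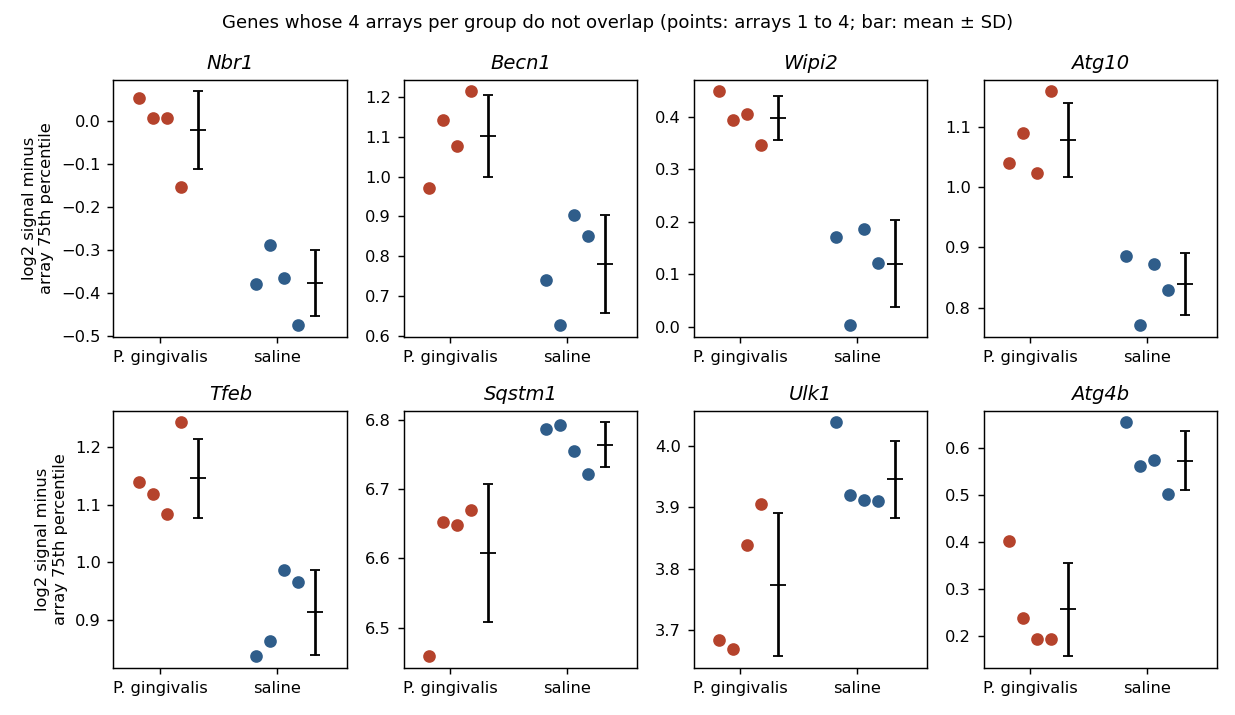
Log2 signal relative to the array's 75th percentile (vertical axis, its range set per gene and not starting at 0) on the 4 P. gingivalis and 4 saline arrays for the 8 genes whose groups do not overlap, with the mean ± SD beside the points. Nbr1, Becn1, Wipi2, Atg10 and Tfeb are higher on every P. gingivalis array and Sqstm1, Ulk1 and Atg4b lower, and the gap is narrowest for Ulk1.

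The array holds several probes for most of these genes, and they did not always point the same way. There were 85 probes, of which 81 were kept and 4 were well above background on 0 arrays. Of the 24 genes with several kept probes, 9 had probes of 1 sign and 15 had both. The 46 probes other than the brightest were mostly higher on P. gingivalis arrays, 33 (71.7%) against 13, with a median of 0.11, and 57.6% of all such probes of the array were higher too. At an unadjusted p under 0.05 were 18 of the 46 (39.1%), 15 higher and 3 lower, against 23.5% of all such probes of the array. Their groups did not overlap for 11 probes (23.9%), all higher, where 15.4% of all such probes of the array did not overlap (11.5% higher and 3.91% lower). Higher values were thus also the commoner direction among dimmer probes of other genes. By limma over all 33749 kept probes, 0 of the 81 passed an adjusted p of 0.05, where 0.163% of all did, and the lowest was 0.0635.

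That lowest value belonged to Tfeb, whose 4 probes gave 0.23, -0.09, 0.53 and 0.32 in order of brightness, the brightest first. The groups did not overlap for 3 of them. Sqstm1 had probes whose groups did not overlap on both sides of 0, the only gene of the 24 to do so. Its brightest probe was at -0.16, and the other 2 at 0.26 and 0.20, and the groups did not overlap for any of the 3. The second probe of Sqstm1, at chr11:50015985-50016044 (mm9), had 3.77, 3.72, 3.71 and 3.62 on P. gingivalis arrays, against 3.54, 3.55, 3.38 and 3.32 on saline arrays. The direction of Sqstm1 therefore depends on the probe. A refit of the values in the authors' deposited table under the groups of the sample records gave 0.04 for Sqstm1 and 0.12 for Ulk1. In that table the rows of Atg13, Ulk1 and Sqstm1 are at mean levels of 13.7, 10.1 and 14.7. The probes named there had means of 4.32, 3.77 and 3.71 on P. gingivalis arrays here. These rows may therefore not stand for 1 probe each, and they are no separate reading of direction.

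Ulk1 likewise was at -0.17 by its brightest probe and 0.49 by its dimmer one, and Ulk2 at -0.11 and 0.19. Atg4b gave -0.32, 0.01, -0.16 and 0.20, so only its brightest probe separated the groups. Nbr1 gave 0.35 by the brightest probe and 0.11 and -0.05 by dimmer probes, each of which was well above background on 6 arrays. Wipi2 gave 0.28, 0.11 and -0.02. Probes of Lamp2 gave 0.03, 0.18 and 0.37, and those of Map1lc3b 0.12, 0.20 and 0.29. For Pink1 they gave 0.11 and 0.31, and for Bnip3l 0.01 and 0.34. Probes of these 4 genes had 1 direction in this processing, with the brightest nearest to 0. Becn1 has 1 kept probe, so no second probe bears on it.

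**Figure D3:**
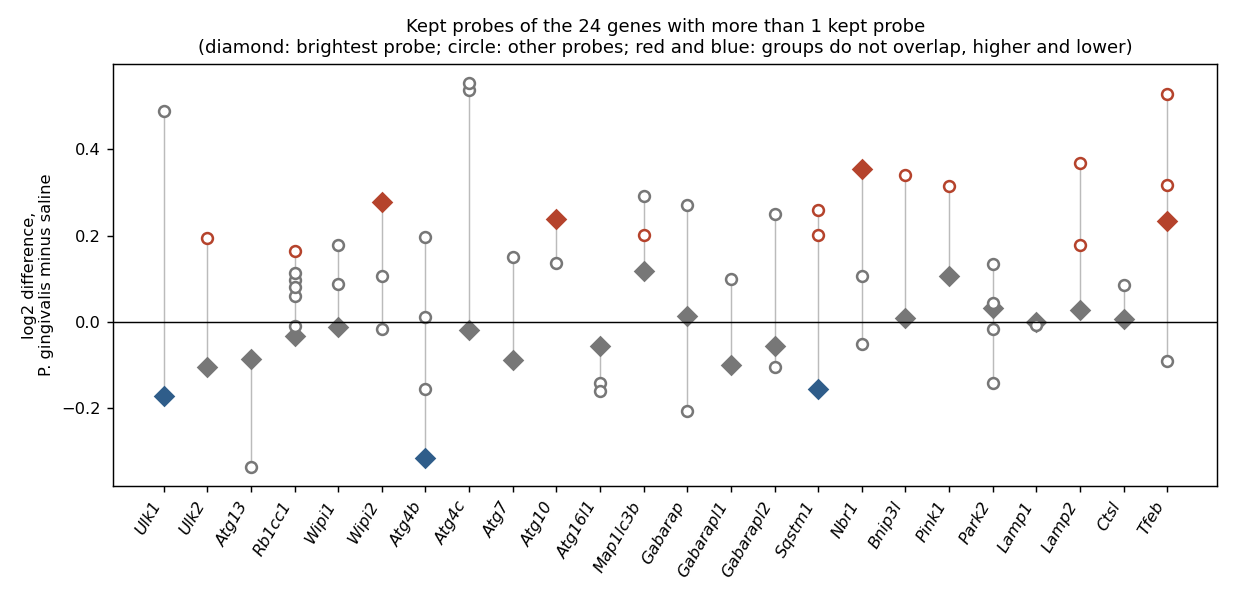
Log2 difference (P. gingivalis minus saline, vertical axis) of each kept probe of the 24 genes with more than 1, as a diamond for the brightest probe and circles for the others, coloured where the 4 arrays per group do not overlap. All 11 coloured circles are above 0, and Sqstm1 has a coloured diamond below 0 and coloured circles above it.

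The authors' deposited table holds 59 rows for the 35 genes, and 2 of them (3.39%) have an adjusted p under 0.05 there, against 1.53% of its 28250 rows. Only 1 of the 2 is the brightest row of its gene, that of Becn1. In the authors' deposited table Becn1 has a log2 fold change of -0.37 with an adjusted p of 0.0447, in the direction of its column names, which carry the groups exchanged. For the dimmer Tfeb probe that was at 0.53 above, the authors' deposited table gives -0.56 with an adjusted p of 0.0443, in the same naming. By the sample records both are higher on P. gingivalis arrays.

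Levels of 5 pairs of related genes were compared across the 8 arrays, out of 8 pairs computed. The other 3 pairs include a gene whose groups do not overlap, and no correlation is given for them. Map1lc3a and Map1lc3b had a Pearson r of -0.20 (exact permutation p = 0.718, adjusted 0.807) and a Spearman rho of -0.05 (exact permutation p = 0.935, adjusted 0.935), with r at 0.19 without the 2 farthest arrays. Gabarap and Gabarapl2 had r = 0.40 (exact permutation p = 0.321, adjusted 0.580) and rho = 0.55 (exact permutation p = 0.171, adjusted 0.342), with r at 0.81 without the 2 farthest. Gabarapl1 and Map1lc3b had r = 0.38 (exact permutation p = 0.363, adjusted 0.580) and rho = 0.12 (exact permutation p = 0.793, adjusted 0.906), with r at 0.11 without them. Bnip3 and Bnip3l had r = -0.10 (exact permutation p = 0.807, adjusted 0.807) and rho = -0.19 (exact permutation p = 0.665, adjusted 0.886), with r at -0.72 without them. Lamp1 and Lamp2 had r = 0.13 (exact permutation p = 0.757, adjusted 0.807) and rho = 0.19 (exact permutation p = 0.665, adjusted 0.886), with r at -0.30 without them. Over all 8 arrays, 0 of these 5 relations had an adjusted p under 0.05, and each r moved when 2 arrays were left out. Values within the groups, of 4 arrays each and not tested, were further from 0 for some pairs. For Map1lc3a and Map1lc3b r was -0.99 within P. gingivalis arrays and -0.96 within saline arrays, and -0.87 over all 8 with group means removed. For Gabarapl1 and Map1lc3b it was 0.90 within P. gingivalis arrays and 0.54 within saline arrays, and 0.75 with group means removed. For Gabarap and Gabarapl2 it was 0.96 within P. gingivalis arrays and 0.72 within saline arrays, and 0.54 with group means removed. With group means removed, r was -0.11 for Bnip3 and Bnip3l and 0.15 for Lamp1 and Lamp2.

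Other genes of the pathway were described by 9 further lists of 157 genes, 154 of them measured. Of these, 0 passed an adjusted p of 0.05 in limma, 24 were at an unadjusted p under 0.05 (15.6%) and 18 had groups that did not overlap (11.7%). Both shares were below those of all genes, 19.7% and 13.4%. The directions were uneven, with 21 of the 24 higher (13.6% of the genes, against 10% of all genes) and 3 lower (1.95%, against 9.69%), and 15 of the 18 without overlap were higher. Fusion of the autophagosome with the lysosome had the highest share, with 6 of 13 genes at an unadjusted p under 0.05 (46.2%), all higher on P. gingivalis arrays, and a list median of 0.13, against -0.01 over all genes. Without P. gingivalis array 3 and saline array 1 that count was 3, where 13.8% of all genes were at an unadjusted p under 0.05, and without saline array 4 it was 4, where 17% were.

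In that list the groups did not overlap for 5 genes (38.5%, against 13.4% of all genes). Vps41, a subunit of the tethering complex HOPS, had 1.94, 2.10, 2.05 and 2.06 on P. gingivalis arrays, against 1.74, 1.72, 1.84 and 1.66 on saline arrays. All 4 P. gingivalis arrays were above the saline arrays, with a log2 difference of 0.30 ± 0.06 (SE, n = 4 per group, limma adjusted p = 0.0790). Epg5, another tether, was at 0.24 ± 0.05 (SE, n = 4 per group, limma adjusted p = 0.0825). The autophagosomal SNARE Stx17 was at 0.23 ± 0.05 (SE, n = 4 per group, limma adjusted p = 0.0989). The SNARE Ykt6 (0.17) and the HOPS subunit Vps33a (0.13) complete the 5 and were picked out after their values were seen. Other HOPS subunits lay on both sides of 0, with Vps16 at -0.09, Vps39 at -0.0023, Vps11 at 0.0030 and Vps18 at 0.0090, also picked out after their values were seen.

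Among transcription factors of autophagy genes, Foxo3 had 0.30, 0.24, 0.15 and 0.25 on P. gingivalis arrays, against -0.12, -0.08, 0.01 and -0.08 on saline arrays. The groups did not overlap, and the log2 difference of 0.30 ± 0.06 (SE, n = 4 per group, limma adjusted p = 0.0655) had the lowest adjusted p of all the genes in these lists. Srebf2, a factor of sterol genes, was at 0.35 (adjusted p = 0.0757) and Cebpb at 0.30 (adjusted p = 0.173), while the list median was -0.07. In mTORC1 and AMPK control, 2 of 30 genes were at an unadjusted p under 0.05 (6.67%, against 19.7% of all genes), Rraga and Sesn1. Rraga, a GTPase that brings mTORC1 to the lysosome, had 2.72, 2.66, 2.81 and 2.67 on P. gingivalis arrays, against 2.13, 2.39, 2.43 and 2.21 on saline arrays. Its log2 difference was 0.43 ± 0.08 (SE, n = 4 per group, limma adjusted p = 0.0682), and the groups did not overlap. Sesn1, a stress protein that restrains mTORC1, was at 0.33 (adjusted p = 0.245), and Akt1s1, the PRAS40 subunit of mTORC1, at 0.16.

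The other receptors and mitophagy genes had a median of 0.05 over 20 genes. Phb2, a prohibitin of the inner mitochondrial membrane, was at 0.23 (adjusted p = 0.101), the mitochondrial phosphatase Pgam5 at -0.19 (adjusted p = 0.112) and the outer-membrane receptor Fkbp8 at 0.23 (adjusted p = 0.137). In the list of other initiation genes, Zfyve1, or DFCP1, was at -0.22 (adjusted p = 0.110) and Bcl2, which binds beclin 1, at -0.29 (adjusted p = 0.158), with Sh3glb1 at 0.17. In the list of other membrane expansion genes, 0 of 8 were at an unadjusted p under 0.05, against 19.7% of all genes. Atg9b was at -0.77 with an SE of 0.42, Wdr45b at -0.10 and Atg2b at 0.11. The proton pump subunits Atp6ap1, Atp6v0d1 and Atp6v0c were at 0.28, 0.18 and 0.19 (adjusted p = 0.103, 0.152 and 0.209), in a list of 22 lysosomal membrane genes with 11 on each side of 0. Of 24 lysosomal proteases and hydrolases, 1 was at an unadjusted p under 0.05 (4.17%, against 19.7% of all genes), the saposin precursor Psap at 0.25, with Gusb at -0.16. Of 11 genes in a list drawn up for muscle wasting, not each of them known to be induced there, 9 were higher on P. gingivalis arrays (81.8%, against 47.7% of all genes). The list median was 0.21, and the groups did not overlap for 0 of the 11. In that list 2 genes were at an unadjusted p under 0.05 (18.2%, against 19.7% of all genes), the ubiquitin ligase Fbxo30 at 0.23 (adjusted p = 0.173) and Trp53inp1 at 0.43 (adjusted p = 0.222). The translation repressor Eif4ebp1 was at 0.21 (adjusted p = 0.278), and the muscle ubiquitin ligase Fbxo32, or atrogin-1, named for its known role after its value was seen, was at -0.10.

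**Figure D4:**
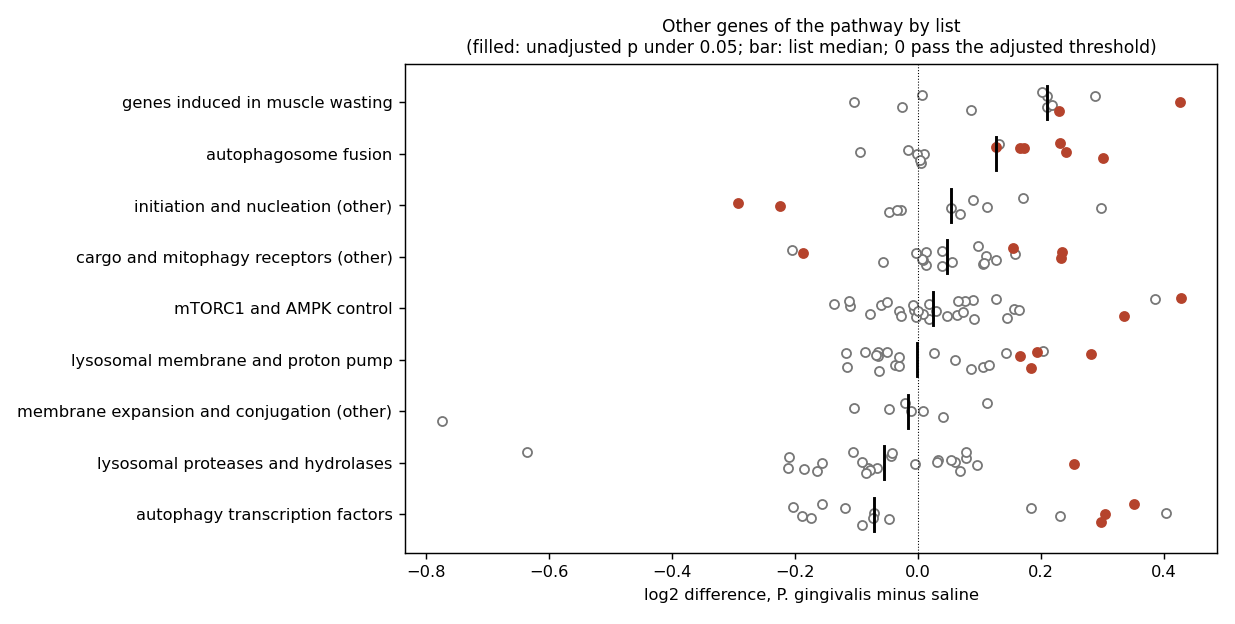
Log2 difference (P. gingivalis minus saline, horizontal axis) of the 154 measured genes of 9 further lists of the pathway, 1 point per gene spread vertically for legibility, filled at an unadjusted p under 0.05, with a bar at the list median. The autophagosome fusion list has 6 filled points of 13, all above 0, and the list labelled genes induced in muscle wasting has the highest median, 0.21.

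Markers of other cells differed between the groups in part. The 8 slow fibre markers were all well above background on all 8 arrays. Their summed signal, in units of the 75th percentile, was 3183 to 3463 on P. gingivalis arrays, against 2903 to 3098 on saline arrays, without overlap. All 8 were higher, 4 of them at an unadjusted p under 0.05 (50%, against 19.7% of all genes). The groups did not overlap for 4 of the 8 (50%, against 13.4% of all genes). The 9 fast fibre markers, of which 8 were higher, summed to 2316 to 3055 on P. gingivalis arrays, against 2110 to 2511 on saline arrays. The 9 endothelial markers summed to 54.2 to 61.9 on P. gingivalis arrays, against 67.9 to 72.2 on saline arrays, without overlap of the sums. Of these 9, 6 were lower and 3 higher, with 3 of the lower and 1 of the higher at an unadjusted p under 0.05. The 13 macrophage markers, of which 11 were lower, summed to 55.1 to 62.9 on P. gingivalis arrays, against 52.1 to 82.3 on saline arrays. Of 8 neutrophil markers 5 were measured, with Retnlg, Ngp and Ltf not kept. Of the 5, 3 were well above background on all 8 arrays, and all 5 were lower. They summed to 0.387 to 0.478 on P. gingivalis arrays, against 0.521 to 3.04 on saline arrays, without overlap of the sums. On saline arrays 1 to 4 the sums were 3.04, 2.30, 0.521 and 0.676. Taken singly, the groups did not overlap for 0 of the 5 (against 13.4% of all genes). The 6 red blood cell markers were all higher and summed to 641 to 1006 on P. gingivalis arrays, against 305 to 922 on saline arrays. Fibroblast, adipocyte and Schwann cell markers overlapped. The part of these cells in the differences of the autophagy and mitophagy genes was not tested.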

How the data were processed

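RNA of 8 soleus samples was hybridised to 1-colour Agilent arrays from 200 ng of total RNA each. The deposited intensity values, per the file headers, are background-subtracted processed signals from Agilent Feature Extraction 11.0.1.1. Version 11.1 is named in the submitters' processing notes. In the deposited table the authors give log2 values, log2 fold changes, p-values and 2 score columns for 28250 rows, with steps not given in the sources used here. The score columns were not used.

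From the log2 signal of each spot the 75th percentile over spots of ControlType 0 on that array was subtracted. Spots with outlier flags were left out (466 probes). Of 56605 probes, 33749 passed the software's test for signal well above background on 4 or more arrays and were kept. Genes took the name in the files and their brightest kept probe, giving 22292 genes. Groups were compared without covariates by lmFit and eBayes of limma 3.58.1 (R 4.3.3, two-sided), and p-values were adjusted by the Benjamini-Hochberg method across the 22292 genes. The fit was tested on simulated data. Pairs of genes were compared by exact permutation tests, two-sided.

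All 35 genes are named, and of each further list the 3 with the smallest p, of which 1 gene is not reported here. The genes, lists and tests were chosen with earlier results of these data known. Precision is limited by the 4 arrays per group. Alternatives covered background, scaling, filter, probe rule, variance model, replicate block and arrays left out. To match the columns of the deposited table to arrays, median spot signals were corrected by normexp with an offset of 16 and quantile-normalized. No header records these steps. They gave a median absolute log2 difference of at most 4.44e-15 per column, and single rows can still differ.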

Additional observations from a re-analysis of the deposited data

Results flagged for a closer look

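In 7 of 70 sets of 4 arrays (35 genes, each in both groups), 1 array lay far from the other 3 by Dixon's test at 95%, where chance gives about 1 in 20. On P. gingivalis arrays these were Sqstm1 on array 1 at 6.46, with the others at 6.65 to 6.67, and on array 4 both Gabarapl1 at 6.72 (others 7.18 to 7.25) and Atg4d at 4.04 (others 4.14 to 4.16). On saline arrays they were Ulk1 on array 1 at 4.04 (others 3.91 to 3.92) and Park2 on array 1 at 0.87 (others 0.97 to 0.98). Saline array 3 was high for Atg9a at 0.20 (others -0.58 to -0.46) and for Atg4d at 4.29 (others 4.09 to 4.12). The 7 values came from 4 arrays, P. gingivalis 1 and 4 and saline 1 and 3, and their causes were not tested.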

How the results depend on the processing

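The count of the 35 genes past an adjusted p of 0.05 was 0 in the processing reported. It was 0 as well with quantile normalization, the mean of all kept probes, the second brightest probe, the replicate block and each array left out. It was 3 with normexp (Becn1, Wipi2, Atg4b, where 2.03% of all genes passed), 6 with median centring (Becn1, Wipi2, Atg10, Map1lc3b, Nbr1, Tfeb, against 10.7% of all genes), 1 (Nbr1, against 1.34%) when each probe had to be well above background on every array and 1 with array weights (Nbr1, against 0.897%). It was 4 with no filter (Wipi2, Atg4b, Atg10, Nbr1, against 14% of all genes), 3 with trended and robust variance (Wipi2, Atg4b, Nbr1, against 2.49%) and 2 with the values of the authors' deposited table refitted under the groups of the sample records (Becn1, Wipi2, against 1.6%). With median centring 15 genes were at an unadjusted p under 0.05, against 32.6% of all genes. The median difference was 0.15 with median centring, 0.046 with the mean of all kept probes and 0.099 with the second brightest probe. Leaving out 1 array at a time gave 6 to 9 genes at an unadjusted p under 0.05 (15.9 to 20.8% of all genes), 8 to 11 with groups that did not overlap (16.8 to 20.9% of all genes) and medians of -0.015 to 0.014. Without P. gingivalis array 3 and saline array 1 together these were 6 (13.8% of all genes), 10 (21.9% of all genes) and -0.017, and 3 fusion genes were at an unadjusted p under 0.05, a count added after seeing the data.

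Deviations of arrays with the same number correlated at 0.06, -0.06, -0.04 and 0.23, so the numbers were not taken to pair the samples. With the replicate block 7 genes were at an unadjusted p under 0.05, against 19.9% of all genes, and the lowest adjusted p was 0.156.

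Of the values of single genes under alternatives, 594 kept their direction and side of the threshold, 20 passed it and 86 changed sign. The values with a changed sign follow by setting. Array weights gave Lamp1 0.00045. Normexp gave Gabarap -0.035, Lamp2 -0.021, Bnip3 -0.0039, Bnip3l -0.00068, Wipi1 0.0011, Atg101 0.0012, Rb1cc1 0.0025, Atg4d 0.0029. Quantile gave Bnip3 -0.11, Bnip3l -0.012, Ctsl -0.0098, Gabarap -0.0030. Median centring gave Ulk2 0.044, Gabarapl1 0.049, Atg7 0.060, Atg13 0.062, Atg9a 0.067, Atg16l1 0.092, Gabarapl2 0.093, Atg3 0.11, Atg101 0.11, Rb1cc1 0.12, Atg4d 0.12, Atg4c 0.13, Wipi1 0.14, Lamp1 0.15. Mean of all kept probes gave Gabarapl2 0.031, Atg7 0.031, Ulk2 0.044, Rb1cc1 0.067, Wipi1 0.084, Sqstm1 0.10, Ulk1 0.16, Atg4c 0.36. Second brightest probe gave Tfeb -0.091, Atg4b 0.012, Wipi1 0.087, Gabarapl1 0.099, Atg7 0.15, Rb1cc1 0.17, Ulk2 0.19, Sqstm1 0.26, Ulk1 0.49, Atg4c 0.54. Values of the authors' deposited table gave Bnip3 -0.17, Tfeb -0.066, Gabarap -0.066, Lamp2 -0.050, Atg5 -0.020, Atg14 -0.00075, Wipi1 0.011, Atg101 0.012, Ulk2 0.014, Sqstm1 0.038, Rb1cc1 0.067, Ulk1 0.12. Leaving out P. gingivalis array 3 and saline array 1 gave Bnip3l -0.018, Ctsl -0.017, Bnip3 -0.0064, Wipi1 0.029. With 1 array left out at a time, ranges crossed 0 for Rb1cc1 -0.071 to 0.00038, Atg9a -0.16 to 0.097, Wipi1 -0.049 to 0.023, Atg4c -0.074 to 0.017, Atg4d -0.055 to 0.013, Atg5 -0.015 to 0.056, Gabarap -0.0094 to 0.035, Gabarapl1 -0.17 to 0.024, Bnip3 -0.017 to 0.081, Bnip3l -0.019 to 0.042, Park2 -0.0066 to 0.072, Lamp1 -0.031 to 0.021, Ctsl -0.048 to 0.094. The causes were not tested. The probe rules use other probes or averages. In the deposited table the brightest row carries the name of another probe for Tfeb, Wipi1, Ulk2, Sqstm1 and Rb1cc1. For the other genes listed with that table it carries the same probe name as in the processing reported. A shared name does not show that the values come from that probe alone, since the Ulk1 row may not stand for 1 probe. Whether rows of that table combine several probes was not tested.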
